A study of Saccharomyces cerevisiae with 9 samples.

Results

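RNA polymerase III (Pol III) of Saccharomyces cerevisiae was followed through the transcripts of 10 genes whose products belong to this enzyme and to no other RNA polymerase. They are RPO31 (YOR116C), RET1 (YOR207C), RPC82 (YPR190C), RPC53 (YDL150W), RPC37 (YKR025W), RPC34 (YNR003C), RPC31 (YNL151C), RPC25 (YKL144C), RPC17 (YJL011C) and RPC11 (YDR045C), taken by systematic name from a table of 7128 genes. All 10 passed the filter on low counts, as did 6338 genes in all. The cells were the diploid strain BY4743, which lacks working URA3 and LEU2 genes, and each culture carried the multicopy plasmid pTOW40836 under selection without leucine and uracil. The Vector group carried the empty plasmid, the GFPop group overexpressed EGFP, and the MOXop group overexpressed moxGFP, a green fluorescent protein without cysteine. The strong TDH3 promoter drove both proteins, so each group is a plasmid-bearing population whose copy number per cell can vary. Each group held 3 libraries of total RNA from log-phase cultures grown at 30 °C, and the comparisons ask how the burden of each protein changed the transcriptome.

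Pol III makes the transfer RNAs, the 5S ribosomal RNA, the U6 spliceosomal RNA and a few other short RNAs. TFIIIC binds promoters inside most of these genes, TFIIIB is placed upstream of them and recruits the polymerase, and TFIIIA is needed for the 5S genes only. Growing yeast spends much of its transcription on ribosomes, and genes for Pol I and Pol III subunits belong to the ribosome biogenesis group, many of which carry the PAC and RRPE promoter elements.

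The promoter windows of the subunit genes are shown first, since these elements mark many ribosome biogenesis genes. In the 300 bases before the start codon, the PAC core GATGAG was present on either strand in 8 of 10 members, against 19.1% of 6007 windows of the same length. The other 2 members, RPC17 and RPC11, had no match in this window. The longer form GCGATGAG, which contains the core, occurred in 4 members against 4.05% of all windows. The RRPE core AAAATTTT, which is its own reverse complement, occurred in 5 members against 9.42%. Both cores stood together in 5 members, against 4.44% of all windows. Among subunits found only in Pol I the PAC core was present in 6 of 7 windows, and among those found only in Pol II in 0 of 7. A match of letters is a description and not a binding site. Some windows lie between a member and a divergent gene, with 397 bases between RPC37 and DBP7, 324 between RPC53 and SAS10 and 299 between RPC25 and LTV1. The same holds for RPC82 and QCR2 (339 bases), RET1 and PTP2 (467), RPC34 and SWM2 (645) and RPO31 and RPT5 (883). A match there cannot be assigned to 1 gene of the pair. The window of RPC17 runs into the divergent gene YNCJ0018W, which lies 195 bases away. The 4 members with the longer PAC form are given below as 30 bases from the RefSeq assembly R64, 5′ to 3′ on the strand of the gene, with the match in capitals as its reverse complement. The window of RPC82 is chrXVI:919145-919174, that of RPC37 is chrXI:487495-487524, that of RPC31 is chrXIV:348586-348615 and that of RPC25 is chrXI:176657-176686. The RPC37 gene lies on the plus strand and the other 3 on the minus strand.
RPC82: tttttcaaaagCTCATCGCattgaaggaaa
RPC37: attttcctaagCTCATCGCaaatttttcaa
RPC31: aaaatagtttcCTCATCGCagcaacctata
RPC25: ttcaggcgatgCTCATCGCttaaaattttt
In RPC25 the RRPE core lay 2 bases beyond the PAC match, inside the same window. RET1 showed the same closeness, with GATGAG and AAAATTTT separated by 3 bases, as 30 bases at chrXV:733559-733588 on the minus strand with the RRPE core in capitals.
RET1: gagatgagctgAAAATTTTtcgatctatgc

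The libraries held 7022201 to 12959660 gene counts, and the 10 members together took 994 to 3289 counts per library. Levels below are CPM, counts scaled to a common library size with TMM factors (edgeR's correction for the makeup of each library). They are relative levels on that scale, neither plain shares of the counts nor amounts per cell. More cells of one kind and more transcript per cell cannot be told apart. The EGFP transgene took 11.2 to 23.8% of gene counts in GFPop, 0.234 to 0.413% in MOXop and at most 0.000675% in Vector. The moxGFP transgene took 4.11 to 31.1% in MOXop, 0.310 to 0.723% in GFPop and at most 6.94e-05% in Vector. MOXop replicate 2 stood apart: ribosomal RNA took 61.2% of its gene counts, against 2.74 to 23.0% in the other 8 libraries, and its TMM factor was 0.384.

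In MOXop cells 7 of the 10 subunit genes were higher than in Vector (false discovery rate (FDR) under 0.05, edgeR quasi-likelihood test), where 14.8% of all genes tested were called higher. No member was called lower, where 14% of all genes were, although the unadjusted p was under 0.05 for 1 member that was lower, RPO31, and the DESeq2 Wald test called it lower. The median log2 fold change of the members was 1.28, beside 0.14 over all genes. In GFPop cells 3 members were higher than in Vector, where 7.6% of all genes were called higher. None was called lower there, where 7.76% of all genes were, with RPO31 alone lower at an unadjusted p under 0.05 and 0 called lower by DESeq2. The members' median was 0.27, beside 0.09 over all genes. Both comparisons share the Vector libraries.

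**Figure D1:**
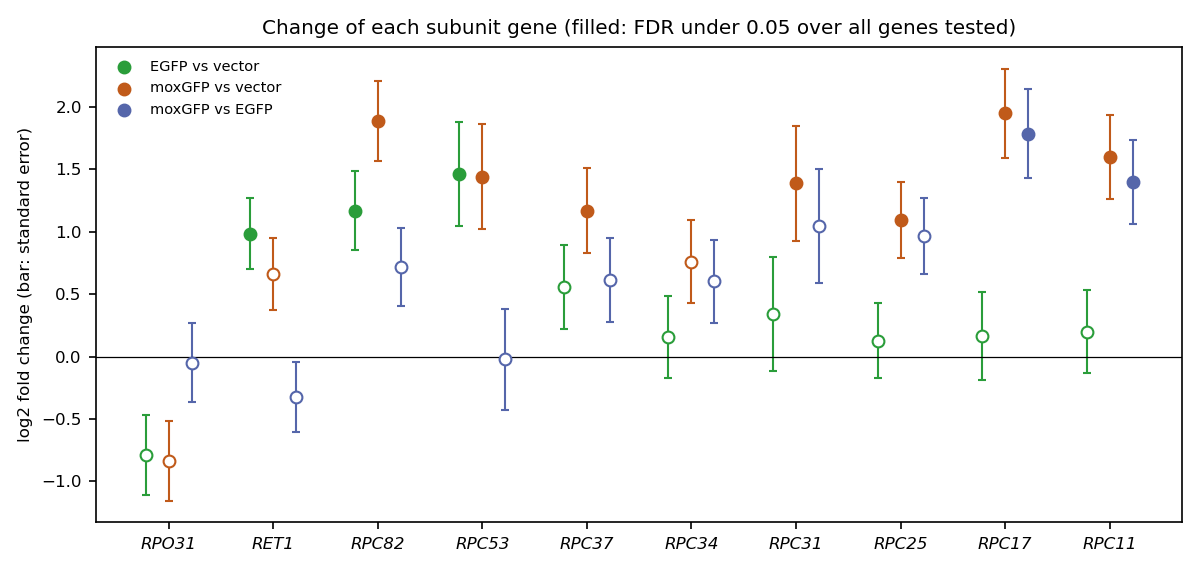
Log2 fold change of each subunit gene with its standard error (vertical axis) in GFPop against Vector (green), MOXop against Vector (orange) and MOXop against GFPop (blue), from the fit over all 9 libraries. Filled points have an FDR under 0.05 over 6338 genes: 3 in green, 7 in orange and 2 in blue, and RPO31 is the only member below 0 against Vector.

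The counts rested on few libraries. For GFPop against Vector, no member was called in 5 of 9 fits that left out 1 library each (without Vector replicate 1 or 3, or GFPop replicate 1, 2 or 3). For MOXop against Vector the count was 3 without Vector replicate 1 or 3 and 4 without MOXop replicate 3, and 8 without MOXop replicate 2. RPC82, RPC17 and RPC11 were called in all 9 of those fits for MOXop against Vector. With library sizes alone or with spike-in totals as the scale, no member was called in any comparison.

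The 2 largest subunits form the catalytic core, and their genes had changes of opposite sign. RPO31 encodes the largest subunit, which holds the active site. Its levels were 122, 97.7 and 96.0 CPM in Vector, 45.7, 69.7 and 67.1 in GFPop, and 86.6, 42.9 and 46.7 in MOXop. Every EGFP and moxGFP library lay below every Vector library. The log2 fold change was −0.79 ± 0.32 (SE) in GFPop (FDR 0.119) and −0.84 ± 0.32 in MOXop (FDR 0.0693), so neither passed the test. It passed when length trends were removed from each library, with −1.16 (FDR 0.00794) and −0.82 (FDR 0.0267). For each protein RPO31 also passed in 1 of 10 planned settings and in 1 of 9 fits without 1 library. In GFPop these were the fit of only the 2 groups compared (−0.82, FDR 0.0198) and that without MOXop replicate 2 (−0.83, FDR 0.0259). In MOXop they were the DESeq2 Wald test and the fit without MOXop replicate 1. RET1 encodes the second-largest subunit and was at 25.7, 19.4 and 25.4 CPM in Vector, 39.3, 46.9 and 53.3 in GFPop, and 43.4, 24.5 and 43.0 in MOXop. All 3 GFPop libraries were above Vector, while MOXop replicate 2 fell within the Vector range. RET1 rose in GFPop by 0.99 ± 0.28 (FDR 0.0396), a call kept in 1 of 9 fits without 1 library, and had 0.66 ± 0.28 in MOXop (FDR 0.0994).

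The share of member counts taken by RPO31 joins its own change with those of the other 9 members. All 9 had positive log2 fold changes against Vector in both groups, which also lowers this share. The share was 46.5 to 60.3% in Vector, 23.8 to 33.1% in GFPop and 14.8 to 32.8% in MOXop. It did not overlap between Vector and either of the others. The summed level of the 10 members was 189 to 210 CPM in Vector, 192 to 216 in GFPop and 264 to 290 in MOXop. On this TMM scale only the MOXop sums lay apart from Vector. As a plain percentage of gene counts, the members took 0.01596 to 0.0223% in Vector, 0.02523 to 0.02775% in GFPop and 0.01112 to 0.0366% in MOXop. By that measure every GFPop library lay above Vector, and MOXop overlapped Vector.

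RPC82, RPC34 and RPC31 encode the subcomplex that meets TFIIIB at the promoter and helps open the DNA. RPC82 was at 5.10, 8.84 and 4.72 CPM in Vector, 14.0, 12.7 and 15.5 in GFPop, and 17.1, 27.1 and 25.4 in MOXop. The 3 groups did not overlap, and MOXop was the highest. RPC82 rose by 1.17 ± 0.32 in GFPop (FDR 0.0313) and by 1.89 ± 0.32 in MOXop (FDR 0.00318). RPC31 was at 2.13, 9.74 and 5.48 CPM in Vector, 8.39, 8.03 and 5.75 in GFPop, and 11.5, 16.3 and 18.2 in MOXop. Its Vector libraries spread widely, and only the MOXop libraries were all above them. RPC31 rose by 1.39 ± 0.46 in MOXop (FDR 0.0434), a call kept in 3 of 9 fits without 1 library, and had 0.34 ± 0.46 in GFPop (FDR 0.65). RPC34, which contacts the TFIIIB subunit Brf1, was at 11.8, 15.4 and 14.2 CPM in Vector, 13.8, 16.5 and 15.9 in GFPop, and 14.4, 36.5 and 20.2 in MOXop. The groups overlapped and the high MOXop value was that of replicate 2, and its change in MOXop was 0.76 ± 0.33 (FDR 0.104), or 0.32 (FDR 0.359) without that library; in GFPop it was 0.16 ± 0.33 (FDR 0.786).

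RPC53 and RPC37 encode a heterodimer that acts in initiation, termination and reinitiation. RPC53 was at 2.49, 6.14 and 2.21 CPM in Vector, 10.8, 11.2 and 8.18 in GFPop, and 9.14, 12.5 and 8.35 in MOXop. All 6 libraries with a fluorescent protein were above all 3 Vector libraries. RPC53 rose by 1.46 ± 0.42 in GFPop (FDR 0.0374) and by 1.44 ± 0.42 in MOXop (FDR 0.0265), and MOXop and GFPop differed by −0.02 ± 0.41. RPC37 was at 8.30, 18.1 and 10.1 CPM in Vector, 21.03, 16.8 and 16.0 in GFPop, and 20.6, 26.3 and 35.4 in MOXop. Vector replicate 2 reached into the GFPop range and stayed below all MOXop libraries. RPC37 rose by 1.17 ± 0.34 in MOXop (FDR 0.0257) and had 0.56 ± 0.34 in GFPop (FDR 0.291).

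RPC25 and RPC17 encode the stalk, which binds the emerging RNA and takes part in initiation. RPC25 was at 10.1, 15.7 and 12.3 CPM in Vector, 15.3, 15.8 and 10.5 in GFPop, and 19.2, 30.0 and 32.4 in MOXop. RPC17 was at 4.98, 7.94 and 5.18 CPM in Vector, 7.60, 5.08 and 7.74 in GFPop, and 15.4, 32.7 and 22.8 in MOXop. For both genes Vector and GFPop overlapped, and every MOXop library was above all other 6. RPC25 rose by 1.09 ± 0.30 in MOXop (FDR 0.0215) and RPC17 by 1.95 ± 0.36 (FDR 0.00411), the largest rise of any member in the fit of all 9 libraries. Without MOXop replicate 2, RPC82 led with 1.75 and RPC17 had 1.65. In GFPop the values were 0.13 ± 0.30 (FDR 0.813) and 0.17 ± 0.35 (FDR 0.785).

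RPC11 encodes the small subunit needed for RNA cleavage by the enzyme and for termination. It was at 9.25, 11.3 and 13.7 CPM in Vector, 16.5, 7.54 and 15.5 in GFPop, and 26.5, 41.1 and 36.7 in MOXop. As with the stalk, the MOXop libraries lay above all others and the GFPop libraries spread across the Vector range. RPC11 rose by 1.60 ± 0.34 in MOXop (FDR 0.00732) and had 0.20 ± 0.33 in GFPop (FDR 0.721).

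**Figure D2:**
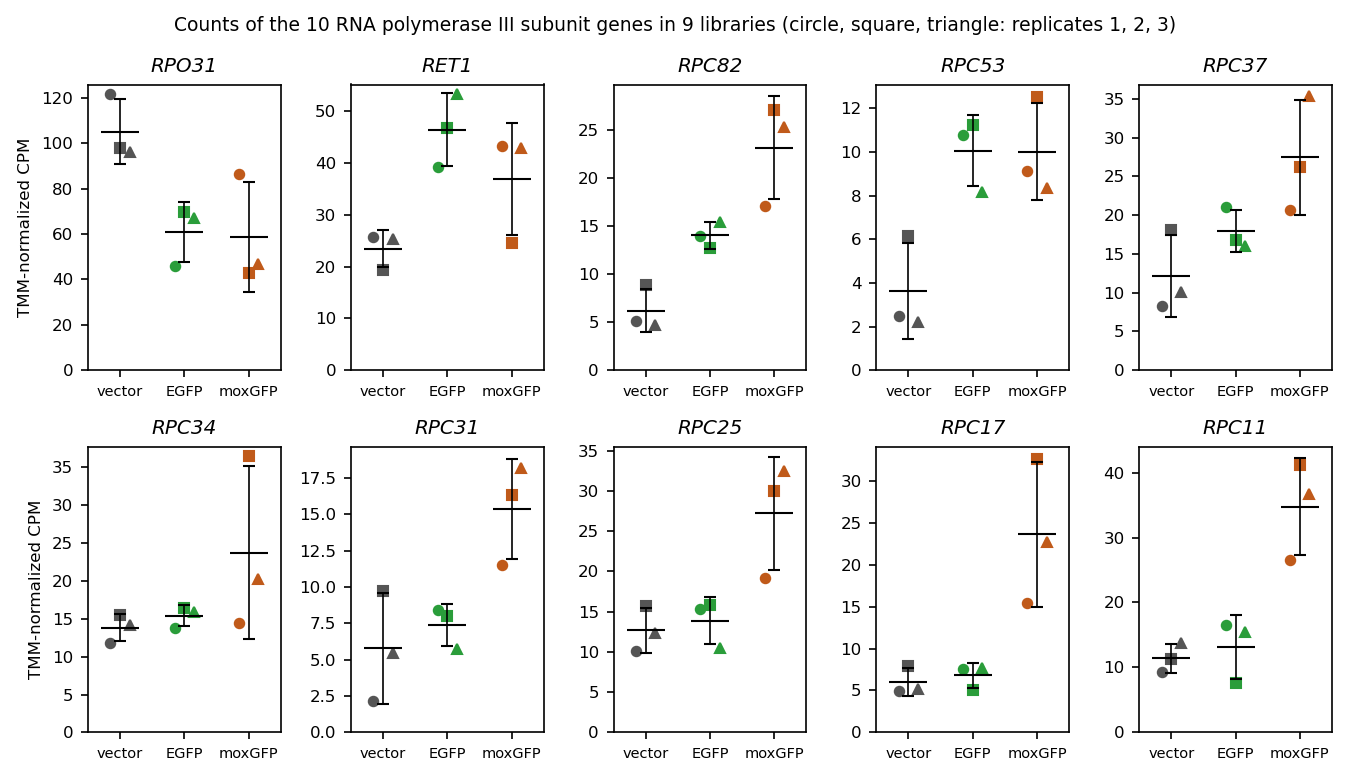
Level of each subunit gene in TMM-normalized CPM (vertical axis, from 0, scaled per gene) in the Vector (grey), GFPop (green) and MOXop (orange) libraries, with circle, square and triangle for replicates 1, 2 and 3, and bars for mean ± SD over 3 libraries. RPC17 and RPC11 sit apart in MOXop alone, RPC53 is higher in both overexpressing groups, and for RPO31 all libraries of both lie below Vector.

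Groups that did not overlap were also counted. All 3 MOXop libraries lay above all 3 Vector libraries for 7 members, as for 22.9% of all genes, and below them for 1 member, RPO31, as for 22.4% of genes. All 3 GFPop libraries lay above Vector for 3 members, as for 24.6% of genes, and below for 1, again RPO31, as for 21.2% of genes. Vector replicate 2 was the highest Vector library in 7 of 10 members. The members' median in GFPop was 0.04 without Vector replicate 1 and 0.64 without Vector replicate 2, and in MOXop 0.99 and 1.58.

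Set directly against GFPop, MOXop had 2 members higher, RPC17 and RPC11, where 7.48% of all genes were called higher. No member was lower, where 7.07% of genes were, and 0 were lower at an unadjusted p under 0.05 or by DESeq2. RPC17 was 3.44-fold higher (log2 1.78 ± 0.36, FDR 0.012) and RPC11 2.64-fold higher (1.40 ± 0.34, FDR 0.022). RPC25 came next to the threshold with 0.97 ± 0.30 (FDR 0.0537). All 3 MOXop libraries lay above all 3 GFPop libraries for 5 members, RPC82, RPC31, RPC25, RPC17 and RPC11, as for 16.8% of genes, and below for 0 members, as for 19% of genes. Without GFPop replicate 2 no member was called, and without GFPop replicate 1 only 1 was. The difference between proteins was smallest for RPC53 and RPO31, at −0.02 ± 0.41 (FDR 0.973) and −0.05 ± 0.32 (FDR 0.93), intervals that include differences of either sign.

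Coding length moved with these differences. Over 5826 genes the Spearman correlation of the log2 fold change with coding length was −0.18 in MOXop against Vector and −0.31 in MOXop against GFPop, and 0.12 in GFPop against Vector. Over the 10 members it was −0.56, −0.89 and 0.21, as points that share the same 9 libraries. Genes up to 500 bp had a median of 0.50 in MOXop against GFPop and those over 3000 bp −0.38. MOXop replicate 2 carried the trend furthest, with a median deviation of 0.79 log2 units from the mean of the libraries in the shortest class and −0.47 in the longest. GFPop replicate 3 ran the other way, with −0.26 and 0.51. In GFPop against Vector the class medians were −0.07 in the shortest class and 0.38 in the longest. RET1 (3450 bp) stood 0.61 above the latter, and had 0.69 (FDR 0.041) with the length trend removed. RPC17 (486 bp) and RPC11 (333 bp) belong to the shortest class, whose median was 0.58 in MOXop against Vector. In that comparison RPC17 stood 1.38 above the class median and RPC11 1.02, and RPC82 (1965 bp) stood 2.03 above the median of its own class, the largest distance of any member. With the length trend removed from each library, 8 members were higher and RPO31 lower in MOXop against Vector. That fit called 999 of 5826 genes higher and 1007 lower there, and RPC17 had 1.58 and RPC11 1.18. Against GFPop only RPC17 stayed called, with 1.37 (FDR 0.00878), while RPC11 had 0.95 (FDR 0.0513). Over all genes 504 were called higher and 462 lower in that comparison. With the length trend removed and MOXop replicate 2 left out, RPC11 was called against GFPop again, with 1.08 (FDR 0.0169).

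**Figure D3:**
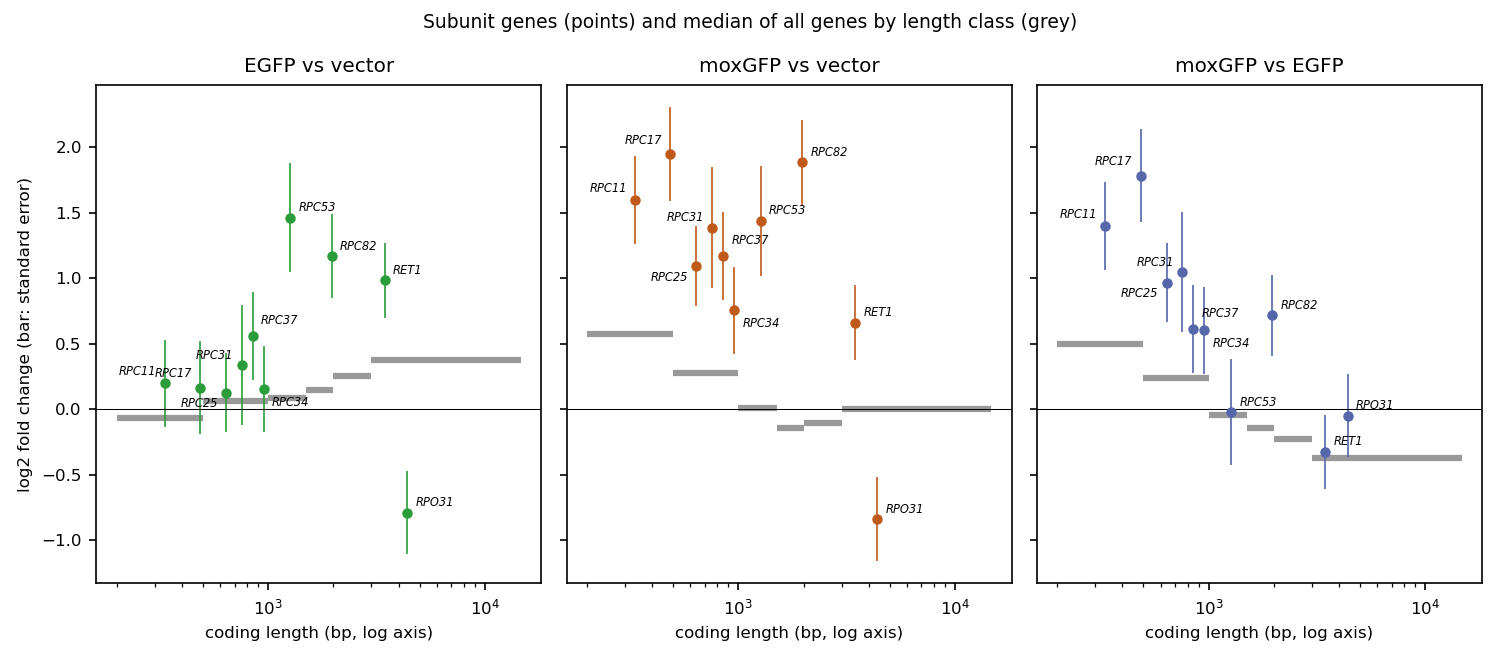
Log2 fold change of the 10 subunit genes (points, bars are standard errors) against coding length in bp on a log axis, with the median of all genes in each of 6 length classes (grey). The grey medians slope down in MOXop against GFPop, from 0.50 to −0.38. All 10 members lie above the median of their class there, by 0.02 (RPC53) to 1.29 (RPC17), with RPC17, RPC11 and RPC82 furthest.

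Levels between genes are compared per kilobase of coding sequence. In Vector RPC11 was the highest at 34.3 ± 6.7 CPM per kb (mean ± SD, n = 3), followed by RPO31 at 24.0 ± 3.3 and RPC25 at 19.9 ± 4.4. RPC34 (14.5 ± 1.9), RPC37 (14.3 ± 6.2) and RPC17 (12.4 ± 3.4) did not differ beyond their SDs. RPC31 (7.65 ± 5.04) and RET1 (6.81 ± 1.03) came below them, and RPC82 (3.17 ± 1.16) and RPC53 (2.85 ± 1.73) were lowest. In MOXop RPC11 stood at 104 ± 22, RPC17 at 48.6 ± 17.8 and RPC25 at 42.6 ± 11.1, and RPO31 at 13.4 ± 5.5 CPM per kb. RPO31 was the second of the members in Vector and the seventh in MOXop, with RPC82 (11.8 ± 2.7) and RET1 (10.7 ± 3.1) within its SD.

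Across the 9 libraries most members followed a common pattern. The Pearson r of log2 CPM of each member with the mean of the other 9 was 0.95 for RPC82, 0.93 for RPC37, 0.89 for RPC31 and for RPC17, 0.87 for RPC25 and 0.79 for RPC11. It was 0.73 for RPC53, 0.69 for RPC34, 0.17 for RET1 and −0.83 for RPO31. The PAC and RRPE cores did not follow this order. RPO31 has the PAC core and RET1 has both cores, while RPC17 and RPC11 have neither. The longer PAC form was in RPC82, RPC37, RPC31 and RPC25, with r of 0.95, 0.93, 0.89 and 0.87. Of the members without it, RPC17 had 0.89 and the others 0.79 or less. A link between motif and r was not tested. The strongest pairs were RPC17 with RPC11 at 0.95 and RPC37 with RPC31 at 0.94. The genes outside the members most like their mean pattern over 9 libraries were SAS10 at r = 0.986, MAK11 at 0.985, MRPL17 at 0.982, VPS501 at 0.979 and QCR8 at 0.979. SAS10 encodes a protein of the small-subunit processome, MAK11 a factor for the large ribosomal subunit, MRPL17 a mitochondrial ribosomal protein and QCR8 a subunit of respiratory complex III. These r values rest on 3 groups and on libraries that differ in depth and in length trend.

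SAS10 is also the R64 gene divergent from RPC53, with 324 bases between them. It rose by 1.07 ± 0.33 in GFPop (FDR 0.0489) and by 2.27 ± 0.34 in MOXop (FDR 0.00182), and the GFPop call was lost in 7 of 9 fits with 1 library left out. RPC25 is divergent from LTV1, a gene for small-subunit assembly, with 299 bases between, and LTV1 rose by 2.09 ± 0.38 in MOXop (FDR 0.00401). RPC37 is divergent from DBP7, a helicase gene for large-subunit assembly, which rose by 1.45 ± 0.50 in MOXop (FDR 0.0498), a call kept only without MOXop replicate 2. Neighbours of other members did not all follow: QCR2, divergent from RPC82, was higher in GFPop (1.49 ± 0.32, FDR 0.0119, lost without Vector replicate 1 or 3 or GFPop replicate 2) and had 0.18 ± 0.32 in MOXop (FDR 0.689). No gene of R64 overlaps a member, and no member had another coding sequence at 90% identity or more over 50% of its length. The row YNL150W, which R64 does not annotate and whose name places it next to RPC31, had 112 to 273 counts in 8 libraries and 1008 in MOXop replicate 2. Its overlap with RPC31 was not tested, and whether the counting used strand is not given in the sources used here.

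The subunits that Pol III shares with other polymerases were also higher in MOXop. Of the 5 subunits common to all 3 polymerases, all 5 were higher in MOXop, where 14.8% of all genes were called higher. Their median was 1.30, led by RPB5 (1.82 ± 0.34), RPO26 (1.31 ± 0.35) and RPB10 (1.30 ± 0.30). Without MOXop replicate 2, RPO26 had 0.97 and RPB10 1.39. The call of RPB8 (0.98, FDR 0.0399) was lost in 7 of 9 fits with 1 library left out. One of these was the fit without MOXop replicate 2 (0.56, FDR 0.0787). Of the pair shared with Pol I, RPC19 rose by 1.93 ± 0.32 (FDR 0.00302) and RPC40 missed the test with 0.994 ± 0.345 (FDR 0.0506). RPC40 was called in 1 of 9 fits with 1 library left out, that without MOXop replicate 2 (1.29, FDR 0.00188). In GFPop none of these 7 was called, where 7.6% of all genes were called higher and 7.76% lower. There 0 had an unadjusted p under 0.05 or were called by DESeq2. Against GFPop, RPC19 (1.68 ± 0.32), RPB10 (1.61 ± 0.30) and RPB5 (1.45 ± 0.34) were higher in MOXop, where 7.48% of all genes were. The count of 5 fell to 3 without Vector replicate 3, and to 2 without Vector replicate 1 or with the length trend removed, and against GFPop the count among these 5 was 0 without GFPop replicate 1 or 2.

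The same counts were made for subunits particular to the other polymerases. For Pol I, 5 of 7 were higher in MOXop, where 14.8% of all genes were called higher. Their median was 1.52, led by RPA43 (1.95 ± 0.37), RPA34 (1.93 ± 0.41) and RPA49 (1.55 ± 0.36). In GFPop 0 of 7 were called, where 7.6% of all genes were called higher and 7.76% lower. There 0 had an unadjusted p under 0.05 and DESeq2 called 0, with a median of 0.37. Against GFPop, RPA34 (1.68 ± 0.41), RPA43 (1.28 ± 0.37) and RPA12 (1.20 ± 0.27) were higher in MOXop, where 7.48% of all genes were. The Pol I count of 5 was 2 without Vector replicate 1 or 3, and 0 were called against GFPop without GFPop replicate 1 or 2. For Pol II, none of 7 was higher in MOXop (1 at an unadjusted p under 0.05, and 0 by DESeq2), with a median of 0.36. RPO21, which encodes its largest subunit, was lower (−1.09 ± 0.34, FDR 0.0339). That is 1 of 7, where 14% of all genes were called lower. The RPO21 call was lost without Vector replicate 1 or 3, GFPop replicate 1 or 2, or MOXop replicate 3. No test was made between these lists.

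**Figure D4:**
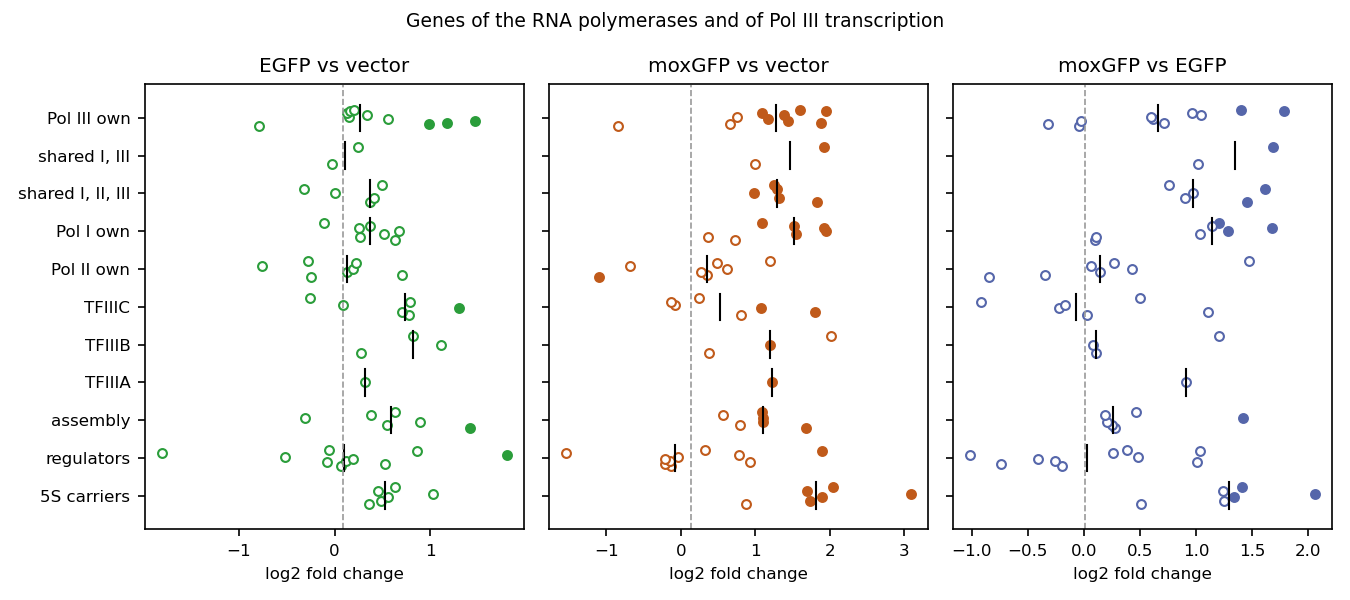
Log2 fold change (horizontal axis) of every gene in 11 lists of polymerase subunits and Pol III transcription genes, in 3 comparisons, with the list median as a black bar and the median of all genes as a dashed line. Filled points have an FDR under 0.05. In MOXop against Vector the medians of Pol III (1.28), Pol I (1.52) and the subunits shared by 3 polymerases (1.30) lie to the right of Pol II (0.36).

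Genes for the factors that bring Pol III to its genes, and for its assembly, were counted in the same way. Of all genes, 7.6% were called higher in GFPop and 14.8% in MOXop against Vector, and 7.48% in MOXop against GFPop. Lists of 6 genes or fewer are too short to set single calls apart from these shares. Of the 6 TFIIIC genes, TFC4 rose by 1.30 ± 0.36 in GFPop (FDR 0.0342), and TFC1 (1.81 ± 0.56) and TFC4 (1.07 ± 0.36) rose in MOXop. TFC1 stood at 8.26, 44.6 and 11.1 CPM in MOXop against 4.15, 7.42 and 6.09 in Vector, so that replicate 2 is far above the other libraries, and without it the change was 0.70 (FDR 0.102). The TFC1 call was also lost without any 1 of the Vector libraries or GFPop replicate 2. The TFC4 calls were lost in 7 of 9 fits with 1 library left out in GFPop, and in 8 of 9 in MOXop. Of the 3 TFIIIB genes, BDP1 rose in MOXop (1.20 ± 0.39, FDR 0.0408), a call lost in 7 of 9 such fits. PZF1, which encodes TFIIIA, rose there by 1.23 ± 0.42 (FDR 0.0488), and its groups overlap: it stood at 14.4, 4.96 and 19.5 CPM in MOXop, and replicate 2 lies within the Vector range of 4.88 to 6.37. Its call was kept only without MOXop replicate 2 (1.58, FDR 0.00106) and lost in the other 8 fits. Among 6 genes for assembly or import of polymerases, BUD27 rose by 1.41 ± 0.40 in GFPop (FDR 0.0349), a call lost without Vector replicate 1 or 3 or any 1 of the GFPop libraries. In MOXop 4 of them rose, led by BUD27 (1.69 ± 0.40), with GPN3 2.16-fold and GPN2 2.15-fold higher, and GPN3 was also higher than in GFPop (1.42 ± 0.31, FDR 0.0161), a call lost without GFPop replicate 1 or 2. Without Vector replicate 1, 0 genes of TFIIIC, TFIIIB, TFIIIA or assembly were called in MOXop, and without Vector replicate 3 only 1 was. In GFPop 0 of these genes were called without either of those libraries.

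Of 10 regulators, KNS1, a kinase that phosphorylates Rpc53, rose by 1.79 ± 0.42 in GFPop (FDR 0.0159), a call lost without Vector replicate 1, 2 or 3 or GFPop replicate 2. PPH3, the catalytic subunit of the phosphatase that acts on the Pol III repressor Maf1, rose by 1.90 ± 0.33 in MOXop (FDR 0.00322). Each was the only 1 of the 10 called against Vector in its group, where 7.6% (GFPop) and 14.8% (MOXop) of all genes were called higher. The medians of the 10 were 0.09 in GFPop and −0.08 in MOXop. MAF1 and MCK1, also among the 10, were named after their values were seen. MAF1 had 0.07 ± 0.25 in GFPop (FDR 0.878) and −0.13 ± 0.25 in MOXop (FDR 0.722). MCK1 had −1.80 ± 0.59 in GFPop (FDR 0.0637) and −1.54 ± 0.59 in MOXop (FDR 0.0687). In each comparison MCK1 was called lower in 2 of 9 fits with 1 library left out. Without MOXop replicate 2 it had −1.84 (FDR 0.000241) in GFPop and −1.05 (FDR 0.0163) in MOXop. Of 6 genes whose products carry 5S rRNA into the large ribosomal subunit, 5 rose in MOXop, beside 14.8% of all genes. They were led by RPF2 (3.09 ± 0.54), SYO1 (2.04 ± 0.43) and RPL11B (1.90 ± 0.34). In GFPop 0 of the 6 were called, beside 7.6% of all genes called higher, 0 had an unadjusted p under 0.05 and DESeq2 called 0. RPL11B has a near-identical copy in RPL11A, and the split of reads between them is uncertain. RPF2 (2.06 ± 0.51), SYO1 (1.41 ± 0.42) and RPL11B (1.34 ± 0.33) were also higher in MOXop than in GFPop, where 7.48% of all genes were. The count of 5 was 3 without Vector replicate 1, and against GFPop 0 were called without any 1 of the GFPop libraries.

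The products of Pol III were poorly measured. SCR1, the RNA of the signal recognition particle, was at 443, 183 and 125 CPM in Vector, 142, 162 and 101 in GFPop, and 151, 5011 and 48.5 in MOXop. RPR1, the RNA of RNase P, was at 162 CPM in MOXop replicate 2, against 1.106 to 25.8 in the other 8 libraries. MOXop replicate 2 was far above the other libraries for both, and neither passed the test in any comparison. The 299 transfer RNA rows together held 78 to 435 counts per library, with the highest sum in MOXop replicate 2.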

How the data were processed

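RNA-seq libraries were prepared from 9 cultures (3 per group, biological replicates per the labels) with a stranded total RNA kit and ERCC spike-ins. Per the labels and the study's methods, FastP, HISAT2 2.2.0, SAMtools 1.11 and StringTie took the reads to a count per gene; the deposited values are unnormalized counts per gene. The genome build and annotation used are not given in the sources used here.

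Counts of all 9 libraries were fitted with edgeR 4.0.16 (filterByExpr, TMM, quasi-likelihood test, no replicate block, Benjamini-Hochberg adjustment over 6338 genes, FDR under 0.05), leaving out 92 ERCC rows. SE is the log2 fold change divided by the square root of F. DESeq2 1.42.0, other scalings and filters, fits without each library and a lowess offset on coding length (chosen after seeing the data) were alternatives. Scripts were tested on simulated data. Names, coding lengths and promoter sequences came from RefSeq R64; 6048 rows matched by systematic name. Coding sequences were compared with BLAST 2.17.0. Members, lists and motifs were chosen with earlier results of these data known. Named genes were all members, up to 3 called genes per list and comparison by size of change, and the 5 genes most like the members' mean pattern. Neighbours, Pol III products, MAF1, MCK1, RPC40 and RPB8 were added.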

Additional observations from a re-analysis of the deposited data

How the results depend on the processing

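With library sizes alone, 0 members were called in each comparison, and the members' median was 0.66 in GFPop against Vector and 0.17 in MOXop against GFPop, where RPC34 turned to −0.10; this scaling moved the median of all genes to 0.53, 0.07 and −0.47 in the 3 comparisons, from 0.09, 0.14 and 0.01. With spike-in totals as library size 0 members were called in each. Over all genes those scalings gave 81 higher and 34 lower (sizes alone) or 7 and 14 (spike-ins) in GFPop against Vector, beside 482 and 492, and 11 and 17 (spike-ins) in MOXop against Vector, beside 937 and 887. MOXop against GFPop had 19 higher and 127 lower with sizes alone, beside 474 and 448, and 4 genes called in all with spike-ins. MOXop against Vector had 248 genes called with sizes alone. With only the groups compared in the fit, 4 members were called in MOXop against Vector and 1 in MOXop against GFPop, and the genes called over all were 1953, 1214 and 245, beside 974, 1824 and 922. DESeq2's Wald test called 1452 genes in MOXop against GFPop. DESeq2 size factors turned RPC53 in MOXop against GFPop to 5.85e-05. The cause of these shifts was not tested.

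The length offset left 1 member called in MOXop against GFPop and turned RPO31 to 0.34, RET1 to 0.0488 and RPC53 to 0.10 there; with MOXop replicate 2 also left out, RPO31 was at 0.39 and RET1 at 0.15, and 2102 genes (GFPop against Vector) and 1477 genes (MOXop against GFPop) were called.

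Leaving out 1 library in turn, the members called ranged from 0 to 4 (GFPop against Vector), 3 to 9 (MOXop against Vector) and 0 to 3 (MOXop against GFPop), and the medians from 0.0433 to 0.64, 0.99 to 1.58 and 0.65 to 0.89. In GFPop against Vector RPC31 ranged from −0.057 to 0.93 and RPC25 from −0.0292 to 0.31. In MOXop against GFPop RPO31 ranged from −0.43 to 0.17 and RPC53 from −0.16 to 0.0892. Over all genes the calls ranged from 274 (without Vector replicate 1) to 2049 (without MOXop replicate 2), from 750 (without Vector replicate 1) to 2388 (without MOXop replicate 2) and from 101 (without GFPop replicate 2) to 1394 (without MOXop replicate 2).

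Same-numbered libraries did not deviate together (mean r −0.02, range −0.33 to 0.23, beside 0.01 for other pairs). With 3 libraries per group, these values cannot show whether same-numbered cultures were grown or prepared together. With the replicate block 2, 7 and 2 members were called, RET1 in GFPop had an FDR of 0.0505, and 595 genes were called in MOXop against GFPop. The low counts of RPC53 and RPC31 (21 to 137 and 18 to 207 per library) limit their precision, with standard errors of 0.41 to 0.46.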
